A study of Mus musculus with 12 samples.

Results

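CXCR3 is a chemokine receptor carried mainly by activated T cells and natural killer cells, and CXCL9, CXCL10 and CXCL11 are the chemokines that bind it and draw such cells into inflamed tissue and tumors. CXCL9 is induced almost wholly by interferon gamma, whereas CXCL10 and CXCL11 are also induced by type I interferons and NF-κB, and in tumors the ligands come from macrophages, dendritic cells, stromal cells and the cancer cells themselves. C57BL/6 mice carry a frameshift in Cxcl11 and make no working CXCL11 protein from it, although the gene is transcribed. The 4 genes of this ligand and receptor system, Cxcl9, Cxcl10, Cxcl11 and Cxcr3, were found by symbol among the 19137 genes with counts, and all 4 were among the 13464 genes that passed the filter on low counts.

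The RNA came from subcutaneous tumors of MC38, a mouse colon carcinoma line, grown in the right flank of wild-type female C57BL/6 mice, given as 6 weeks old in the labels. Con mice received saline with an IgG2a control antibody. SFIH mice received IgG2a with 50 mg/kg per day of SFIH, a fraction of Inula helenium root rich in sesquiterpene lactones. PD mice received 200 μg of anti-PD-1 antibody per injection, and Comb mice received SFIH and anti-PD-1. Tumors were taken on day 19, with 3 tumors in each of the 4 groups. All injections were intraperitoneal. Anti-PD-1 blocks the inhibitory receptor PD-1 on T cells, so the comparisons ask how each agent alone, and the combination, went with the levels of the ligands and their receptor.

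Each library was a whole-tumor library, although the labels call the source tumor cells. Total counts ran from 7870741 to 12261032 per tumor, and the ribosomal precursor Rn45s took from 4.28% to 17.1% of them. Of 9 epithelial markers, the colon factor Cdx2 had 0 or 1 count in every tumor and Epcam had 0 to 22 counts in 11 tumors and 85 in Comb 3, and the 9 markers summed to between 4.60 and 22.3 CPM (counts scaled to a common library total) in those 11 tumors. One library, Comb 3, stood apart from the other 11. Its 10 skeletal muscle markers summed to 5394 CPM, against 716.5 in Comb 1 and 11.4 to 150.3 in the other 10, its 7 adipocyte markers summed to 976 CPM, and its 10 macrophage markers summed to 11062 CPM against 584 to 3519 elsewhere. Values of the 4 genes that rest on that tumor are therefore given with and without it, DESeq2 was run on all 12 tumors alone, and the part that tissue make-up plays in them was not tested. In a bulk tumor, fewer cells of a type and less RNA per cell cannot be told apart.

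The ligand genes lie next to each other on chromosome 5, in the order Cxcl9, Art3, Cxcl10 and Cxcl11, and Cxcr3 lies on the X chromosome. RefSeq lists Cxcl11 as a transcribed pseudogene and the other genes as protein coding. Because Cxcl9 and Cxcl10 neighbour each other but differed in their values below, their promoters are shown, each as the 250 bases before the start site in GRCm38.p6, from RefSeq, at chr5:92328080-92328329 for Cxcl9 and chr5:92348890-92349139 for Cxcl10, both read 5′ to 3′ on the minus strand. RefSeq promoters were also found for Cxcr3 and not for Cxcl11. Capitals mark every match to an interferon-stimulated response element (ISRE, searched as GAAANNGAA) or to the kappa-B motif of NF-κB.
Cxcl9: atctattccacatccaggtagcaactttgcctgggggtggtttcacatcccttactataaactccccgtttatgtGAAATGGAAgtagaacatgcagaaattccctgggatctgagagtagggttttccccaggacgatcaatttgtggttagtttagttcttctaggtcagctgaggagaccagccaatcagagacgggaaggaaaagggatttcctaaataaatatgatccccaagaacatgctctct
Cxcl10: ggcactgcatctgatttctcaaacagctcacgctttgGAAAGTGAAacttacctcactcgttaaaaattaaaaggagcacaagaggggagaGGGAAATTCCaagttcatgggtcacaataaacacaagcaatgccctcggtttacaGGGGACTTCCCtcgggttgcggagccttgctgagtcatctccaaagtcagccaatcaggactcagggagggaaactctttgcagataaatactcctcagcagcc
Each promoter held 1 ISRE match, from base -175 to base -167 in Cxcl9 and from base -213 to base -205 in Cxcl10. Cxcl10 also had kappa-B matches at -159 to -150, -104 to -95 and -103 to -94, of which the last pair overlap. The kappa-B letters had no match in the Cxcl9 window on either strand, and the interferon gamma-activated site (GAS, searched as TTCNNNGAA) had none in either gene. Among 32851 mouse promoters of this length, 7.13% held the ISRE letters, 7.25% the kappa-B motif and 7.02% the GAS letters. These matches describe the letters of the window and were not tested for binding.

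Cxcl9 and Cxcl10 were abundant, Cxcl11 was intermediate and Cxcr3 was scarce. QuantSeq libraries copy the 3′ end of each transcript, so counts do not grow with gene length and levels can be set side by side between genes. Averaged over the 12 tumors, Cxcl10 had 420 CPM, Cxcl9 had 245 CPM, Cxcl11 had 26.3 CPM and Cxcr3 had 3.18 CPM. The mean of Cxcl10 exceeded that of 97.6% of the genes tested, Cxcl9 that of 95.01%, Cxcl11 that of 55.7% and Cxcr3 that of 15.6%. The order was not the same in every tumor, since Cxcl9 exceeded Cxcl10 in PD 2 and Comb 3 and lay below it in the other 10 tumors. Cxcr3 rested on 390 counts in all 12 tumors together, so its values carry the largest counting error of the 4 genes.

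**Figure D1:**
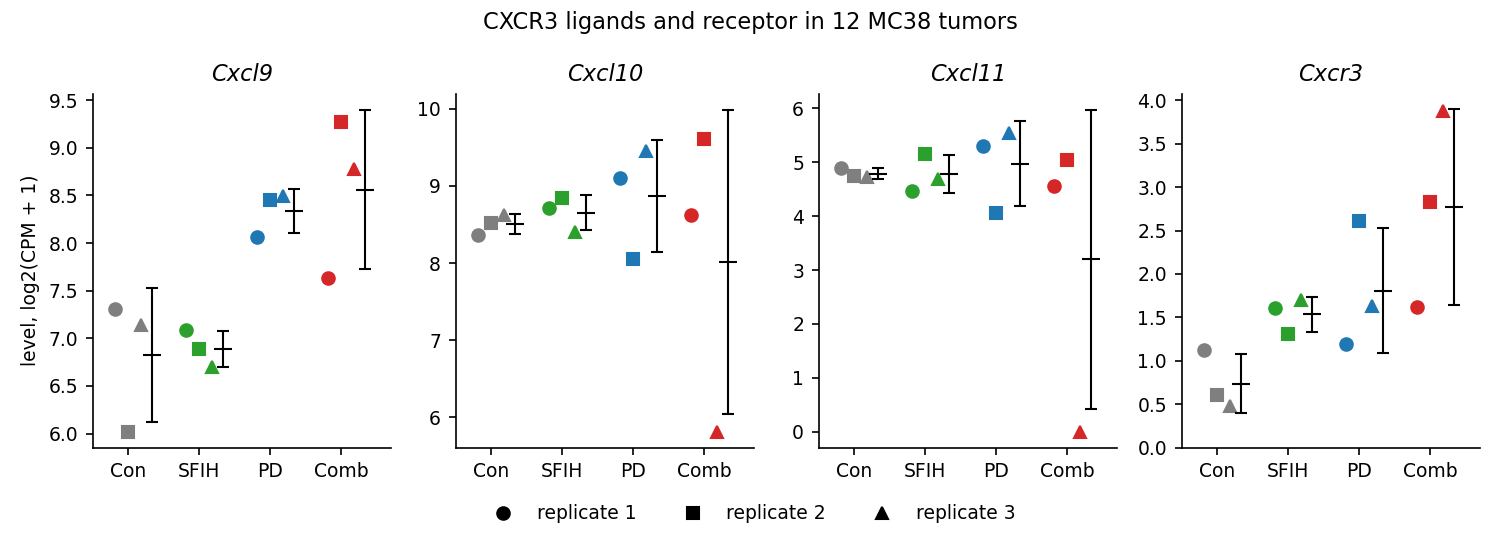
Level of each gene in each tumor as log2(CPM + 1), by group, with the mean and SD (n = 3 tumors) as a bar to the right of the points. The axes differ between genes and only those of Cxcl11 and Cxcr3 reach 0. All 6 tumors with anti-PD-1 (PD and Comb) lie above all 6 without it for Cxcl9, and Comb 3 is the lowest tumor for Cxcl10 and Cxcl11 and the highest for Cxcr3.

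Cxcl9, the ligand most tied to interferon gamma, was higher in every tumor with anti-PD-1 than in every tumor without it. In Con 1, Con 2 and Con 3 it reached 158, 63.9 and 139.7 CPM, and the SFIH tumors had 135, 117 and 103 CPM in the same order. The PD tumors had 267, 349 and 358 CPM, and the Comb tumors had 198, 616 and 438 CPM. The lowest tumor with anti-PD-1 was thus Comb 1 and the highest tumor without it was Con 1, with no overlap between the 6 and the 6. On the log2(CPM + 1) scale the mean was 8.45 ± 0.56 (SD, n = 6) with anti-PD-1 and 6.86 ± 0.46 (n = 6) without, and no other division of the tumors would give a larger difference in this direction (exact permutation test, two-sided p = 0.0021645, the smallest that 6 against 6 can give). The same lack of overlap, in the same direction, was met by 0.661% of the 13464 genes tested. Cxcl9 was the only one of the 4 genes to show it.

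In the edgeR quasi-likelihood fit, Cxcl9 was 3.59-fold higher with anti-PD-1 than without (log2 fold change 1.84 ± 0.31, SE). Its adjusted p was 0.0973, above the threshold of 0.05 that 0% of genes passed in this comparison. By unadjusted edgeR p, Cxcl9 (8.56e-05) and Cxcr3 (0.00263) were under 0.05, against 18.7% of all genes, and Cxcl10 and Cxcl11 were not. With DESeq2 the same 2 genes passed an adjusted p of 0.05 (Cxcl9, 7.89e-06, and Cxcr3, 0.00419), against 9.28% of all genes. Without Comb 3 the Cxcl9 log2 fold change was 1.78 (edgeR adjusted p = 0.065).

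The difference in Cxcl9 was seen with the antibody alone and with the combination, and SFIH alone left the group mean within the spread of Con. In PD against Con the edgeR log2 fold change of Cxcl9 was 1.54 ± 0.43 (unadjusted p = 0.00438, adjusted p = 0.999791), and all 3 PD tumors lay above all 3 Con tumors. In Comb against Con it was 2.12 ± 0.44 (adjusted p = 0.0665), or 1.98 without Comb 3, again with 3 of 3 tumors above Con. In SFIH against Con it was -0.03 ± 0.42. Comb exceeded PD by 0.58 ± 0.42 (adjusted p = 0.447), or 0.44 without Comb 3, with Comb 1 below all 3 PD tumors, so the combination and the antibody alone were not separated for this gene. Comb exceeded SFIH by 2.15 ± 0.44 (adjusted p = 0.128), or 2.02 without Comb 3. The interaction term, which asks whether the effect of the pair departs from the sum of the single effects, was 0.62 ± 0.60 (adjusted p = 0.894).

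Comb 1 had the lowest Cxcl9 of the tumors with anti-PD-1, and the edgeR calls of Cxcl9 and Cxcr3 turned on that tumor. Without Comb 1 the adjusted p of Cxcl9 fell to 0.00294 in Comb against Con, 0.00545 in Comb against SFIH and 0.00428 for anti-PD-1 against none (edgeR). Cxcr3 passed in the same comparisons, at an adjusted p of 0.00475, 0.0186 and 0.0103 (edgeR). Those fits called many other genes as well, with 3943, 3118 and 2370 genes passing in the same order, or 28.5%, 22.5% and 17.1% of the genes tested. The skeletal muscle markers of Comb 1 were the second highest of the 12 tumors.

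Cxcl10, which is also induced by type I interferon and NF-κB, varied more among the tumors with anti-PD-1 than among those without it. The Con tumors had 328, 365 and 392 CPM and the SFIH tumors 418, 457 and 336 CPM. The PD tumors had 548, 264 and 698 CPM, and the Comb tumors had 395, 779.8 and 55.3 CPM. The groups overlapped, the SD on the log2 scale was 0.13 in Con and 1.97 in Comb, and both the highest and the lowest of the 12 values were Comb tumors. The edgeR log2 fold change with anti-PD-1 was 0.40 ± 0.44 (adjusted p = 0.656). The mean of log2(CPM + 1) went the other way, 8.44 with anti-PD-1 against 8.57 without. Without Comb 3 the means differed by 0.39 toward anti-PD-1 and the edgeR value was 0.66 ± 0.23 (unadjusted p = 0.0155, adjusted p = 0.153). In Comb against Con it was 0.40 with all tumors and 0.90 without Comb 3 (edgeR unadjusted p = 0.0221, adjusted p = 0.195).

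Cxcl11 transcripts followed Cxcl10 at a lower level. The Con tumors had 28.8, 25.7 and 25.5 CPM and the SFIH tumors 21.1, 34.7 and 24.9 CPM. The PD tumors had 38.6, 15.8 and 45.7 CPM. Comb 1 and Comb 2 had 22.5 and 31.8 CPM, and Comb 3 had 0 of 10981028 counts, which allows at most 0.273 CPM at a floor of 3 counts. That tumor was at least 57.7-fold lower than the lowest of the other 11, PD 2. The edgeR log2 fold change in Comb against Con was -0.37 ± 0.97 with Comb 3 and 0.21 ± 0.36 without it, so its sign rested on that tumor. With anti-PD-1 against none it was 0.01 ± 0.68, and 0.30 ± 0.24 without Comb 3 (edgeR adjusted p = 0.995 and 0.528).

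In Comb 3 the members parted. Cxcl10 was 4.78-fold lower there than in the lowest of the other 11 tumors, and Cxcl11 was not detected, whereas Cxcl9 lay between Comb 1 and Comb 2 and Cxcr3 was 2.24-fold above the highest other tumor. The low values were not shared by every gene of the neighbourhood. Among the genes around the ligands, Sdad1 had 260 counts in Comb 3 against 1004 to 1831 elsewhere and Nup54 had 12 against 69 to 158, while Naaa had 1474 against 151 to 368 and Art3 had 139 against 4 to 28. With anti-PD-1 against none, Art3 and Naaa were higher at an unadjusted edgeR p under 0.05 (0.0333 and 0.012), as were 1807 of 13464 genes. In either direction 18.7% of all genes were under it, and Sdad1, Nup54 and Scarb2 were not. With Comb 3 left out, the log2 fold change of Art3 fell from 1.47 to 0.58 and was no longer under that threshold. That of Naaa fell from 1.27 to 0.54 and stayed under it, where 19.5% of all genes were in either direction.

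The make-up of the ligand counts moved toward Cxcl9 in tumors with anti-PD-1. Of the counts of the 3 ligands, Cxcl9 made up 23.3 ± 8.5% (SD, n = 3) for Con and 21.6 ± 2.1% for SFIH, against 39.8 ± 13.7% for PD and 54.7 ± 30.0% for Comb. The Con tumors had shares of 30.7, 14.04 and 25.1% and the SFIH tumors of 23.5, 19.3 and 22.2%. The PD tumors had 31.3, 55.5 and 32.5%, and the Comb tumors 32.2, 43.2 and 88.8% (for Comb 3, 95% Wilson interval 87.9 to 89.6%, counting error only). A share within a library does not depend on how libraries are scaled to each other.

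The log2 ratio of Cxcl9 to Cxcl10 counts lay between -1.04 and 2.99 with anti-PD-1 and between -2.52 and -1.05 without. The means differed by 1.74, or 3.33-fold, and the 6 tumors with anti-PD-1 all lay above the 6 without (exact permutation test, p = 0.0021645). The gap between the nearest pair, PD 1 at -1.038 and Con 1 at -1.054, was smaller than their counting errors of 0.035 and 0.042, so those 2 tumors cannot be ordered. Without Comb 3 the difference was 1.14, or 2.20-fold (exact permutation p = 0.00433). Since Cxcl9 itself enters this ratio, it is not independent of the difference in Cxcl9. With SFIH against without, the ratio differed by 0.50 (exact permutation p = 0.669), and by -0.22 without Comb 3 (p = 0.665).

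**Figure D2:**
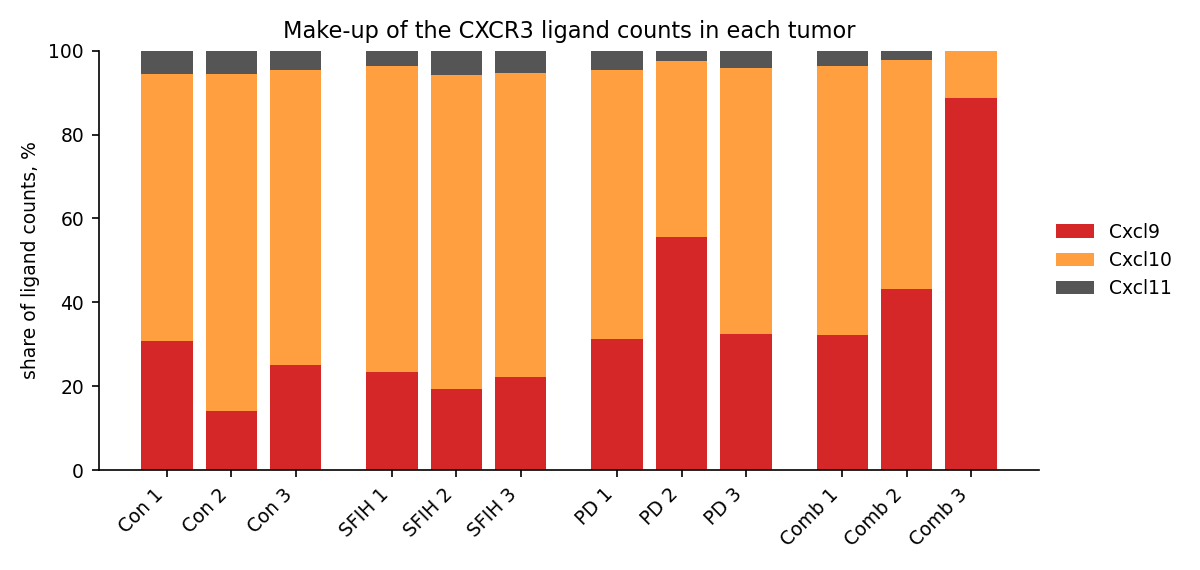
Share of each ligand in the summed counts of Cxcl9, Cxcl10 and Cxcl11, in percent, for each of the 12 tumors. The Cxcl9 share is highest in Comb 3 at 88.8% and lowest in Con 2 at 14.04%, and Cxcl11 is absent from Comb 3.

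Cxcl10 and Cxcl11 kept close to each other. The ratio of Cxcl10 to Cxcl11 counts was between 11.4 and 24.5, with a median of 15.3, in the 11 tumors that had Cxcl11. In Comb 3, with 607 Cxcl10 counts and none for Cxcl11, it was at least 202. Across the 12 tumors the levels of the 2 genes correlated with a Pearson r of 0.95 (permutation p = 0.00021, 0.00126 adjusted over the 6 pairs of members) and a Spearman rho of 0.73 (permutation p = 0.00832, adjusted 0.0499). Without the 2 tumors farthest from the median, Comb 2 and Comb 3, r was 0.86, and without Comb 3 alone 0.77. Within the 6 tumors with anti-PD-1 r was 0.98, and within the 6 without it 0.22, where Cxcl11 spanned 21.1 to 34.7 CPM.

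The other pairs were looser. Cxcl9 correlated with Cxcr3 at r = 0.75 (permutation p = 0.00411, adjusted 0.0123) and rho = 0.63 (permutation p = 0.0323, adjusted 0.097), and at r = 0.66 without Con 2 and Comb 2. This relation was weaker within the treatments, at 0.67 in the 6 tumors with anti-PD-1 and 0.24 in the 6 without. Cxcl9 and Cxcl10 had r = -0.09 over all tumors (permutation p = 0.811, rho 0.17) and 0.55 without Comb 3. Cxcl11 and Cxcr3 had r = -0.72 (permutation p = 0.0225, adjusted 0.0451, rho -0.36) and -0.21 without Comb 3, so that relation rested on 1 tumor. For Cxcl9 with Cxcl11, r was -0.30 (rho 0.02), and for Cxcl10 with Cxcr3 it was -0.55 (rho -0.08), and both had the opposite sign without Comb 3.

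Cxcr3, the receptor, was lowest in Con and highest in Comb, at a level that stayed low throughout. The Con tumors had 13, 5 and 4 counts, and the SFIH tumors had 25, 18 and 22. The PD tumors had 12, 40 and 20 counts, and the Comb tumors had 21, 60 and 150. As CPM, the Con tumors stood at 1.19, 0.52 and 0.40 and the SFIH tumors at 2.04, 1.48 and 2.25. The PD tumors stood at 1.29, 5.08 and 2.09, and the Comb tumors at 2.08, 6.10 and 13.7. All 9 treated tumors lay above all 3 Con tumors, with PD 1 only just above Con 1 and within its counting error.

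Against Con, the edgeR log2 fold change of Cxcr3 was 1.42 ± 0.82 in SFIH (unadjusted p = 0.112), 2.09 ± 0.83 in PD (unadjusted p = 0.0282) and 3.72 ± 0.85 in Comb (adjusted p = 0.0665). The value in PD was no longer under 0.05 without PD 2, where it was 1.28, nor without Con 2 (1.92) or Con 3 (1.78). The value in Comb corresponds to 13.2-fold, and to a log2 fold change of 2.71 ± 0.74 without Comb 3 (adjusted p = 0.112). Each treated group had 3 of 3 tumors above Con on the log2(CPM + 1) scale, where 3 against 3 cannot give an exact permutation p under 0.1. With anti-PD-1 against none the edgeR value was 2.20 ± 0.57 (adjusted p = 0.098), and 1.69 ± 0.49 without Comb 3, and the exact permutation p of the levels was 0.0346. That p rose above 0.05 when any one of Con 1, Con 2, Con 3, SFIH 2, PD 2, Comb 2 or Comb 3 was left out, to at most 0.0736. With SFIH against without, the edgeR value of Cxcr3 was 1.53 ± 0.56 (unadjusted p = 0.02, adjusted p = 0.318). Cxcl9, Cxcl10 and Cxcl11 were not under an unadjusted 0.05 there, which 14.5% of all genes were. Without Comb 3 the edgeR value of Cxcr3 in that comparison was 1.02 ± 0.49 and its unadjusted p rose above 0.05.

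The pairwise comparisons can be read against all genes. In SFIH against Con, 0 of the 4 genes and 2.25% of all genes had an unadjusted edgeR p under 0.05, and 1 of the 4, Cxcr3, and 7.55% of all genes had every SFIH tumor above every Con tumor. In PD against Con these were 2 of the 4 and 3.99% by p, and 2 of the 4 and 5.76% by lack of overlap, with 1 of the 4 by p, Cxcl9, when PD 2, Con 2 or Con 3 was left out (3.94%, 2.44% and 2.56% of all genes). In Comb against Con they were 2 of the 4 and 25.3% by p, and 2 of the 4 and 7.6% by lack of overlap. The 2 genes were Cxcl9 and Cxcr3 each time. With Comb 3 left out of Comb against Con, Cxcl10 joined them by p, which made 3 of the 4 against 18.8% of all genes. In Comb against SFIH both had an unadjusted p under 0.05 (19% of all genes), although Cxcr3 did not without Comb 3, where its log2 fold change was 1.30 in place of 2.30 and Cxcl10, at 0.76, came under that threshold (10.8% of all genes). Cxcl9 alone had every Comb tumor above every SFIH tumor (4.65%). In Comb against PD none of the 4 passed an unadjusted p of 0.05, against 18% of all genes. Cxcr3 was at 1.63 ± 0.77 in that comparison and at 0.63 without Comb 3. Without Comb 1, both Cxcl9 (0.98 ± 0.32) and Cxcr3 (2.12 ± 0.67) were under an unadjusted 0.05 there, as were 36.9% of all genes, and Cxcr3 also without PD 2, as were 18.6% of all genes. Neither passed the adjusted threshold.

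By DESeq2, Cxcl9 and Cxcr3 passed an adjusted p of 0.05 in Comb against Con (0.000163 and 0.000322, with 14.8% of all genes passing) and in Comb against SFIH (0.000253 and 0.0392, with 8.59% passing). By edgeR none of the 4 genes, and 0% of all genes, passed in any of the 8 comparisons with all 12 tumors. Cxcl10 and Cxcl11 passed in none of them by either tool with all 12 tumors. For Cxcr3 the interaction term was 0.22 ± 1.19 with all tumors and -0.79 ± 0.98 without Comb 3.

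**Figure D3:**
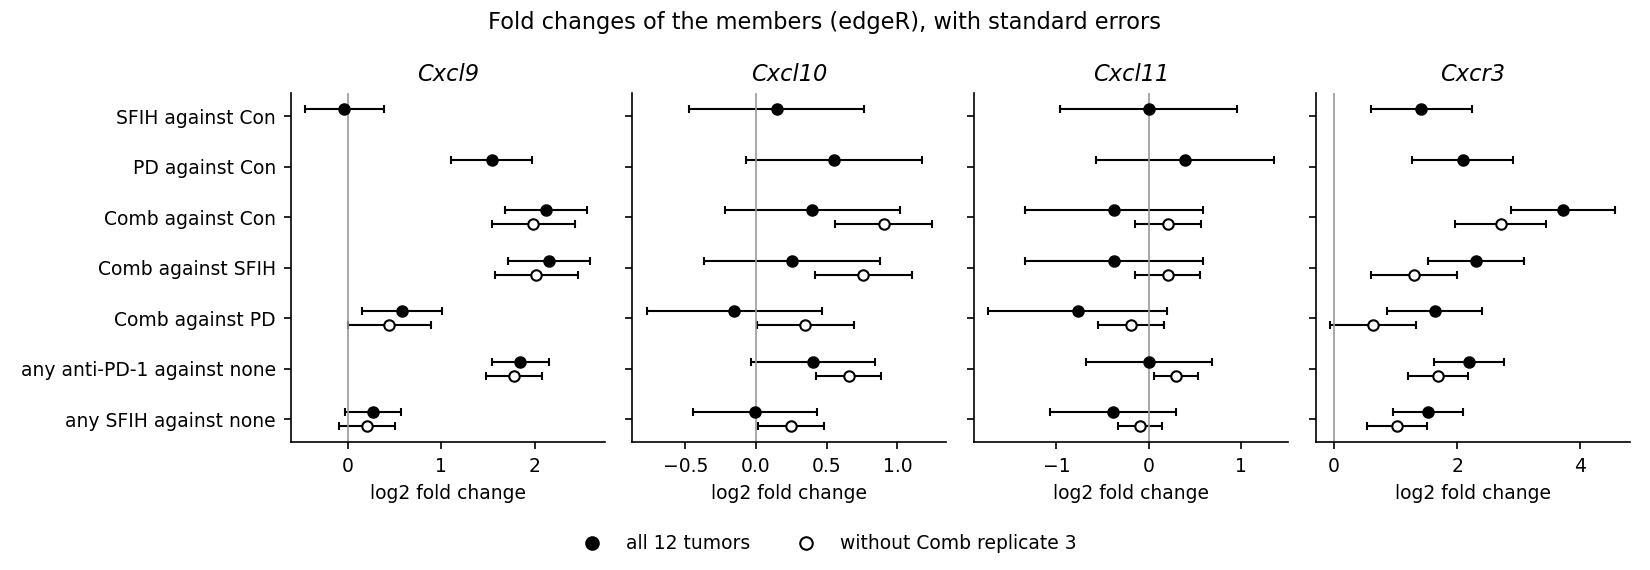
Log2 fold changes of the 4 genes from edgeR with standard errors, for 7 comparisons, from all 12 tumors (filled) and without Comb replicate 3 (open, drawn where a Comb tumor enters). The Cxcl9 values with anti-PD-1 change little without that tumor, from 1.84 to 1.78 for anti-PD-1 against none, while those of Cxcr3 shrink. Those of Cxcl11 change sign in Comb against Con and Comb against SFIH and stay negative in Comb against PD. The horizontal axes differ between genes.

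Markers of T cells moved with the receptor, and those of natural killer cells did so in part. The 15 T cell markers found in the table summed to 32.5 to 57.4 CPM for Con and 33.4 to 68.5 CPM for SFIH, and to 56.5 to 134.7 CPM for PD and 51.2 to 319 CPM for Comb. With anti-PD-1 against none, 14 of the 15 had positive edgeR values, 12 had an unadjusted p under 0.05 (18.7% of all genes), all of them higher, and the median log2 fold change was 1.53. With Comb 3 left out, the median was 1.12 and 9 of 15 were under that threshold (19.5% of all genes). Over all genes tested the median was -0.03. None of the 15 passed the adjusted threshold. All had counts in every tumor but Cd6, which was at 0 in Comb 3. Of 8 natural killer cell markers, 5 were higher with anti-PD-1 at an unadjusted edgeR p under 0.05 (18.7% of all genes in either direction, 1807 of 13464 higher). Without Comb 3 there were 3, Klrk1, Klrd1 and Nkg7 (19.5% in either direction, 1586 of 13621 higher). The cytotoxic receptor gene Ncr1 and the perforin gene Prf1 were at -0.16 ± 0.62 and -0.67 ± 0.69 with all tumors, with Prf1 at 0 in Comb 3. The 8 markers summed to 24.4 to 98.2 CPM in the 6 tumors without the antibody and 42.8 to 366 CPM in the 6 with it.

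Set against those markers, with 1 CPM added to each side of the ratio, Cxcr3 did not differ detectably with anti-PD-1. The log2 ratio of Cxcr3 to the summed T cell markers averaged -4.68 ± 0.62 (SD, n = 3) for Con and -3.98 ± 0.56 for SFIH, and -4.61 ± 0.12 for PD and -4.29 ± 0.19 for Comb. With anti-PD-1 against none the difference was -0.12 (exact permutation p = 0.665), with the 6 and the 6 overlapping. With SFIH against without it was 0.51 (exact permutation p = 0.0368, 0.26 adjusted over the 8 ratios of members to marker lists in that comparison), and 0.57 without Comb 3. The ratio to 8 natural killer cell markers differed by 0.15 with anti-PD-1 (exact permutation p = 0.712) and by 0.23 with SFIH (p = 0.537). The added 1 CPM is above the Cxcr3 level of Con 2 (0.52 CPM) and Con 3 (0.40 CPM), so it raises the lowest ratios most. It can thus hide or shrink a difference between the sides, and ratios without it were not tested.

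Macrophage markers, which mark one source of the ligands, also moved with Cxcl9. The 10 markers summed to 584 to 1063 CPM for Con and 984 to 1195 CPM for SFIH, and to 1021 to 1865 CPM for PD and 1135 to 11062 CPM for Comb, with no marker at 0 in any tumor. All 9 that were tested were higher with anti-PD-1 at an unadjusted edgeR p under 0.05 (18.7% of all genes in either direction, 1807 of 13464 higher). Their median edgeR log2 fold change was 1.66, or 1.04 without Comb 3, and none passed the adjusted threshold. The ratio of Cxcl9 to these markers also had 1 CPM added to each side. Its log2 averaged -2.86 ± 0.34 for Con, -3.17 ± 0.06 for SFIH, -2.10 ± 0.27 for PD and -3.23 ± 1.24 for Comb, where Comb 3 had -4.66. With anti-PD-1 against none it differed by 0.36 (exact permutation p = 0.463), and by 0.75 without Comb 3 (p = 0.00866, 0.0693 adjusted over the 8 ratios). Of the 8 dendritic cell markers, 5 were higher with anti-PD-1 at an unadjusted edgeR p under 0.05 (18.7% of all genes in either direction, 1807 of 13464 higher). None was lower by that measure, and the median log2 fold change was 1.23. Leaving out Comb 3 gave 2 of 8 higher (19.5% of all genes in either direction, 1586 of 13621 higher) and a median of 0.54. Those 5, Xcr1, Clec9a, Batf3, Flt3 and Cd209a, had their highest counts in Comb 3. Fscn1 went the other way in that tumor, with 581 counts against 2372 to 6566 elsewhere, and since it holds most of the summed level in the other tumors, the sum was lowest in Comb 3, at 160 CPM against 278 to 602 CPM.

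**Figure D4:**
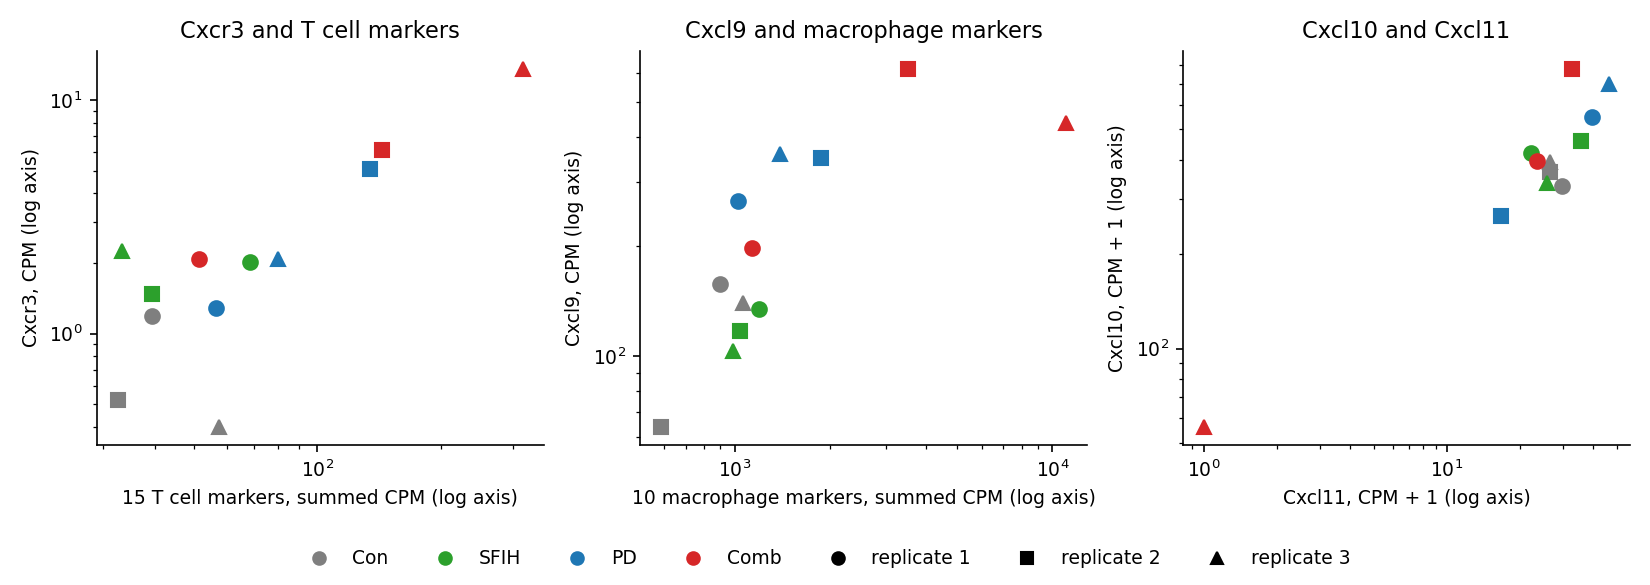
Each point is 1 tumor, colored by group and shaped by replicate, on log axes in CPM: Cxcr3 against the summed T cell markers, Cxcl9 against the summed macrophage markers, and Cxcl10 against Cxcl11 (both with 1 added). Comb 3 has the highest marker sums of all 12 tumors in the first and second panels and lies alone at the lower left in the third.

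The genes upstream of the ligands gave a mixed picture with anti-PD-1. Ifng, the cytokine that induces all 3 ligands, had 29, 7 and 11 counts in the SFIH tumors and 17, 44 and 19 in the PD tumors, between 2 and 14 for Con and between 14 and 92 for Comb. This gave an edgeR log2 fold change of 2.36 ± 0.63 with anti-PD-1 (adjusted p = 0.098). Of the 17 induction genes tested, 12 had positive values, 6 had an unadjusted p under 0.05 (18.7% of all genes), all higher, and the median was 0.29, or 0.21 without Comb 3. The 6 were Ifng, both chains of the interferon gamma receptor (Ifngr1 at 1.05 ± 0.32 and Ifngr2 at 0.76 ± 0.32), the transcription factor Irf1 at 0.61 ± 0.14, the type I receptor chain Ifnar2 at 0.51 ± 0.18 and the feedback inhibitor Socs1 at 0.60 ± 0.23. Without Comb 3, Ifngr1 was at 0.66 ± 0.20 and Ifnar2 at 0.34 ± 0.12, Ifngr2 fell to 0.28 ± 0.14 and was no longer under 0.05, while the cytokine gene Tnf, at 0.87 ± 0.29, was. Stat2 and Irf9, which act in type I signaling, were at -0.15 ± 0.17 and -0.02 ± 0.14, and the NF-κB subunits Nfkb1 and Rela were at -0.08 ± 0.27 and -0.20 ± 0.14. The type I interferon gene Ifnb1 had 0 to 3 counts per tumor and was not tested.

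Other genes that interferon gamma induces were higher in part. With anti-PD-1, 15 of 18 had positive edgeR values and 9 had an unadjusted p under 0.05 (18.7% of all genes), all higher, with a median of 0.46. Without Comb 3 there were 12 of 18 (19.5% of all genes), with a median of 0.55. The class II transactivator Ciita, with 1 to 7 counts in tumors without the antibody and 9 to 80 with it, was at 3.17 ± 0.63 (edgeR adjusted p = 0.0973), or 2.54 without Comb 3, with 6 of 6 tumors above all others in CPM. The guanylate-binding proteins Gbp4 and Gbp5 were at 1.33 ± 0.29 and 0.79 ± 0.18, and Cd274, which encodes PD-L1, was at 0.91 ± 0.29. Of the antigen-processing genes, the transporter subunit Tap1 was at 0.14 ± 0.13 and Tapbp at -0.12 ± 0.16, and the immunoproteasome subunits Psmb8, Psmb9 and Psmb10 were at 0.29 ± 0.16, -0.03 ± 0.24 and 0.24 ± 0.18. None of these 5 was under an unadjusted 0.05, and Tap1, at 0.21, came under it without Comb 3.

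Among 18 genes that control Cxcr3, carry its signal or act on its ligands, 12 had positive values with anti-PD-1, 6 had an unadjusted p under 0.05 (18.7% of all genes), all higher, and the median was 0.52, or 0.23 with 5 higher and 1 lower without Comb 3 (19.5% of all genes). The peptidase Dpp4, which trims the CXCR3 ligands, was at 2.21 ± 0.60, the guanine exchange factor Dock2 at 1.48 ± 0.38, the kinase subunit Pik3cg at 1.02 ± 0.25 and the platelet chemokine Pf4 at 1.76 ± 0.57 (edgeR adjusted p from 0.098 to 0.139). Without Comb 3, Dpp4 was at 1.54 ± 0.48. Tbx21, which encodes T-bet, a factor that drives Cxcr3 in T cells, was at 0.91 ± 0.59, and at 0.37 ± 0.53 without Comb 3. Eomes, the other T-box factor of the list, was at -0.35 ± 0.29, and at -0.62 ± 0.24 without Comb 3, where it was the gene that was lower. Ackr3, a scavenger receptor for CXCL11, was at 0.70 ± 0.43, and Gnai2, a Gi subunit downstream of chemokine receptors, at 0.23 ± 0.12, or 0.43 and 0.15 without Comb 3.

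The genes most like each member were sought among 10605 genes with at least 50 counts on average, by Pearson r of log2(CPM + 1) over the 12 tumors, given here as a description. For Cxcl9 the 5 highest were Slfn5 (0.95), Clec5a, Cmklr1, Ubd and Gm1966 (0.93). Without Comb 3 the 5 highest were H2-DMa (0.98), H2-Eb1, H2-Ab1, H2-Aa and Slc29a3 (0.96), of which the H2 genes encode class II antigen-presenting chains and their chaperone. For Cxcl10 they were Parp11 (0.97), Phip, Ifit1, Tm4sf1 and Ammecr1 (0.96), and without Comb 3 Rap1b (0.94), Psme2, Psme2b, Psme1 and Cox20 (0.91), of which the Psme genes encode the proteasome activator. For Cxcl11 they were 2810417H13Rik (0.99), Eif2ak2, Ccna2, Hmgb2 and Wwc2 (0.99), and for Cxcr3 Anxa6 (0.97), Ninj1, Adamts5, Ly6f and Mpv17 (0.96). Without Comb 3, Anxa6 (0.95) and Ninj1 (0.94) stayed among the 5 for Cxcr3, and none of the 5 stayed for Cxcl9, Cxcl10 or Cxcl11, where Trps1 (0.95), Psd3, Adgra3, Epm2aip1 and Usp47 (0.93) came first for Cxcl11.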

How the data were processed

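Per the labels, total RNA from tumor tissue was made into QuantSeq 3′ libraries and read as single-end 75 bp reads. The authors deposited raw read counts per gene symbol, with 1 column for each of the 12 tumors, and columns were matched to groups by name. The aligner, genome build and annotation are not given in the sources used here, and the study's TPM values were not used. Replicates are separate tumors, and no 2 columns were copies.

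Genes were kept by filterByExpr (13464 of 19137), scaled by TMM and fitted in 1 model of all groups with edgeR 4.0.16 in R 4.3.3 (glmQLFit, glmQLFTest, two-sided, Benjamini-Hochberg adjustment over all genes tested, threshold 0.05). DESeq2 1.42.0 was the other tool. The comparisons anti-PD-1 against none and SFIH against none average the contrasts within each level of the other agent. Levels are log2(CPM + 1) on library totals, compared by exact permutation tests, and correlations used 100000 permutations. Ratios of members to marker lists had 1 CPM added to both the member and the summed markers. With 3 counts as the floor and no molecular identifiers, intervals and floors cover counting error only. Steps were tested on simulated data. Tables and figures used Python 3.11.15, numpy 2.4.6, pandas 2.3.3, scipy 1.17.1 and matplotlib 3.10.9.

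The 4 genes were taken by symbol, all 4 are named in every comparison, list genes are named within their lists, and the 5 genes most like each member are named. Members, comparisons and the 17 gene lists (172 of 177 symbols in the table) were chosen with earlier results of these data known. Alternatives were DESeq2, no TMM, no filter, at least 50 counts on average, a replicate block, the compared groups alone, other pseudocounts (0.5 and 5), TMM-scaled levels and leaving out each tumor. The results without Comb replicate 3 for ratios, correlations, lists and most similar genes were added after seeing the data.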

Additional observations from a re-analysis of the deposited data

Results flagged for a closer look

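The level of Cxcl11 in Comb replicate 3 lay far below the other 5 tumors with anti-PD-1, with a gap to the nearest of them of 0.733 of the whole range, above Dixon's critical value of 0.625 for 6 values. That tumor had 0 Cxcl11 counts, where PD and the other Comb tumors had 124 to 437. Over the 8 groups of 6 tumors checked, chance would flag about 1 in 20, and no other value was flagged. Skeletal muscle, adipocyte, skin and macrophage markers were highest in the same tumor, and their part in the low count was not tested.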

How the results depend on the processing

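The higher level of Cxcl9 in tumors with anti-PD-1 kept its direction under every alternative run, with an edgeR or DESeq2 log2 fold change between 1.63 and 2.04 and an adjusted p between 7.89e-06 and 0.246. The level difference of Cxcl9 kept an exact permutation p of at most 0.00433 with any 1 tumor left out. With DESeq2, Cxcl9 passed the threshold at 2.14 in Comb against Con, 2.18 in Comb against SFIH and 1.86 for anti-PD-1 against none, and Cxcr3 at 3.79, 2.35 and 2.23. DESeq2 called 1998 genes in Comb against Con, 415 in Comb against PD, 1157 in Comb against SFIH, 1250 for anti-PD-1 against none, 268 for SFIH against none, 6 in PD against Con, 4 in SFIH against Con and 1 for the interaction, against none with edgeR, and the cause was not tested. Values near 0 changed sign: Cxcl11 in SFIH against Con to -0.0011 with DESeq2 and -0.0092 with the compared groups alone, Cxcr3 in the interaction to -0.053 and Cxcl11 for anti-PD-1 to -0.13 without TMM, Cxcl10 for SFIH to 0.012 with at least 50 counts on average, and the Cxcl10 level difference for anti-PD-1 to 0.055 with TMM. Leaving out TMM moved the median of all genes to -0.29 in Comb against Con and -0.21 for anti-PD-1 against none. With a replicate block, Cxcl11 for anti-PD-1 was at -0.040, no gene was called in any comparison, and no other member changed direction or side of the threshold. Correlations of same-numbered tumors ran from -0.24 to 0.36, so the numbers do not pair the tumors. Cxcr3 had under 50 counts on average, so that filter gave no value for it.

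Leaving out 1 tumor at a time gave the following log2 fold changes. In SFIH against Con, Cxcl9 ran from -0.34 to 0.23, Cxcl10 from 0.066 to 0.21, Cxcl11 from -0.20 to 0.17 and Cxcr3 from 1.11 to 2.04. In PD against Con, Cxcl9 ran from 1.23 to 1.80, Cxcl10 from 0.27 to 0.84, Cxcl11 from 0.13 to 0.71 and Cxcr3 from 1.28 to 2.72. In Comb against Con, Cxcl9 ran from 1.76 to 2.50, Cxcl10 from -0.57 to 0.90, Cxcl11 from -1.18 to 0.21 and Cxcr3 from 2.71 to 4.35. In Comb against SFIH, Cxcl9 ran from 1.79 to 2.55, Cxcl10 from -0.71 to 0.76, Cxcl11 from -1.18 to 0.21 and Cxcr3 from 1.30 to 2.79. In Comb against PD, Cxcl9 ran from 0.22 to 0.98, Cxcl10 from -1.12 to 0.35, Cxcl11 from -1.57 to -0.19 and Cxcr3 from 0.63 to 2.42. For the interaction, Cxcl9 ran from 0.25 to 1.02, Cxcl10 from -1.27 to 0.20, Cxcl11 from -1.57 to -0.19 and Cxcr3 from -0.79 to 1.001. For anti-PD-1 against none, Cxcl9 ran from 1.66 to 2.04, Cxcl10 from -0.078 to 0.66, Cxcl11 from -0.39 to 0.30 and Cxcr3 from 1.69 to 2.51, and for SFIH against none Cxcl9 ran from 0.093 to 0.47, Cxcl10 from -0.49 to 0.25, Cxcl11 from -0.79 to -0.095 and Cxcr3 from 1.02 to 1.92. The levels on the log2(CPM + 1) scale differed with anti-PD-1 by -0.37 to 0.39 for Cxcl10, -0.99 to 0.12 for Cxcl11 and 0.84 to 1.37 for Cxcr3, and with SFIH by -0.17 to 0.35 for Cxcl9, -0.61 to 0.15 for Cxcl10 and 0.54 to 1.15 for Cxcr3. Genes called ranged from 0 to 3943 in Comb against Con, 2100 in Comb against PD, 3118 in Comb against SFIH, 2370 for anti-PD-1 and 281 for SFIH, each highest without Comb 1. Without Comb 3 alone, the log2 ratio of Cxcl9 to Cxcl10 for SFIH was -0.22, that of Cxcl10 to T cell markers for SFIH was 0.19, and r was 0.55 for Cxcl9 with Cxcl10, 0.20 for Cxcl9 with Cxcl11, 0.22 for Cxcl10 with Cxcr3 and -0.21 for Cxcl11 with Cxcr3. Depth limits Cxcr3, with as few as 4 counts in a tumor.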

Other observations

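Other CXC chemokines and receptors gave values of their own with anti-PD-1. Of the 13 tested among 16 in the list, 10 had positive edgeR values, 6 were higher and 1 was lower at an unadjusted p under 0.05 (18.7% of all genes), none passed the adjusted threshold, and the median log2 fold change was 0.31, or 0.39 with 5 higher and 1 lower without Comb 3 (19.5% of all genes). Cxcl12, the ligand of CXCR4 made largely by stromal cells, had 36 to 131 counts in the 6 tumors without the antibody and 93 to 408 in the 6 with it (1.91 ± 0.39, adjusted p = 0.0973). Cxcl14 was at 1.63 ± 0.36, Cxcl16 at 1.51 ± 0.39 and its receptor Cxcr6, which marks tissue T cells, at 2.25 ± 0.58. Cxcr4 was at 1.26 ± 0.40 and the B cell chemokine Cxcl13 at 1.97 ± 0.77, or 1.40 ± 0.71 and no longer under 0.05 without Comb 3. Fibroblast markers, which include the cells that make Cxcl12, summed to 757 to 2658 CPM in the 6 tumors without anti-PD-1 and 2176 to 11261 CPM in the 6 with it, and their part in these values was not tested.

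The neutrophil-attracting chemokines were measured in the same tumors. Cxcl3 had 5 to 44 counts in tumors without anti-PD-1 and 0 to 8 in those with it, with an edgeR log2 fold change of -2.50 ± 0.82 (unadjusted p = 0.0106, adjusted p = 0.139). Cxcl1, Cxcl2 and Cxcl5 were at -0.26 ± 0.42, -0.23 ± 0.51 and 0.29 ± 0.50, and their receptor Cxcr2 at 0.18 ± 0.40. Cxcl15 had 156 counts in PD 2, 3 in Comb 2 and 0 in the other 10 tumors, and was not tested.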
